A study of Homo sapiens with 45 samples.

Results

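The 8 genes described here code for the targets and substrates of palbociclib (PB) and were taken by symbol from the counts of 29159 genes. They are the D-type cyclins CCND1, CCND2 and CCND3, the kinases CDK4 and CDK6, and the RB family genes RB1, RBL1 and RBL2. They were followed by polyA RNA-seq in 3 established lines of neuroblastoma, a childhood tumour of the sympathetic nervous system: IMR-32, SH-SY5Y and SK-N-BE(2)C, the last labelled BE2C. All were grown in the same serum-containing medium and are described by the study as wild type for CDK4 and CDK6. BE2C is MYCN amplified and has lost part of 1 arm of chromosome 1. IMR-32 is MYCN and MEIS1 amplified with a loss on that same arm. SH-SY5Y has mutant ALK and chromosomal gains, and is not listed as MYCN amplified. Each line had a control group, labelled only as such with no vehicle named, and was given 1 μM PB for 24 h and for a longer time, 5 days in IMR-32 and SH-SY5Y and 7 days for BE2C. Each of the 9 groups had 5 libraries from separately plated passages, 45 in all. Each line is a single culture model, and control cultures were harvested at the time of the 24 h ones. Longer treatment and longer culture can therefore not be told apart.

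D-type cyclins are made in response to growth signals and bind CDK4 or CDK6. The active kinases phosphorylate RB1 and its relatives RBL1 and RBL2, which otherwise hold E2F transcription factors in check, and phosphorylation frees E2F factors to switch on genes for S phase. PB occupies the ATP pocket of CDK4 and CDK6, so the pocket proteins remain bound to E2F factors. CCND1 is known for its high RNA level in neuroblastoma.

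Libraries held 13459219 to 25441812 counts, with medians by group of 17173879 to 20039131. All or all but 1 of 7 adrenergic markers of neuroblastoma (such as HAND2 and GATA3) were at 1 CPM or more in each group, TH being below that in SH-SY5Y. Of the 7 mesenchymal markers found among 8 listed, 4 to 6 reached that level, and the blood cell markers PTPRC and CD3E summed to at most 0.173 CPM. The marker sums moved with PB. The adrenergic sum at 24 h lay above that of controls without overlap in each line, at 2941 to 3232 against 2148 to 2442 CPM in BE2C, 2432 to 3176 against 1408 to 2209 in IMR-32 and 5188 to 6943 against 3390 to 4614 in SH-SY5Y. At the later time it was 2490 to 3178, 2064 to 2580 and 3404 to 5081 CPM, overlapping the controls in IMR-32 and SH-SY5Y. The mesenchymal sum was 149 to 161 CPM in controls, 104 to 121 at 24 h and 113 to 284 at 7 days in BE2C. It was 309 to 454, 316 to 399 and 158 to 220 CPM in IMR-32, and 492 to 563, 325 to 423 and 239 to 268 CPM in SH-SY5Y, so that both lines were below their controls at 5 days. The part of these shifts in the changes of the 8 genes was not tested. MYCN also moved in the 2 MYCN-amplified lines. It was at 3525 to 4733 CPM in BE2C controls, 4624 to 5350 at 24 h and 1880 to 2679 at 7 days. In IMR-32 it was at 1371 to 1858, 2296 to 2685 and 1899 to 2284 CPM. SH-SY5Y held 2.83 to 11.7 CPM of MYCN over all its groups. The part of MYCN in the changes of the 8 genes was not tested. IMR-32 replicate 5 stood apart from its group in each condition. Its root mean square log2 deviation was 0.477 in the control, 0.457 at 24 h and 0.342 at 5 days, and the other IMR-32 libraries were at 0.163 to 0.299. Values of CDK4, RB1 and RBL1 against control in this line are given with and without it, and those of other RB pathway genes only with it. For CDK4 at 24 h and RB1 only the control library was left out, replicate 5 of the treated groups staying in. For RBL1 it was left out of every group.

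Levels are given as CPM, the counts scaled to library size with TMM factors over all libraries. To compare genes with each other, CPM were divided by the kilobases of exon (kb) annotated for each gene. On this per-kb scale CCND1 was the highest of the 8 genes and CDK4 the second in all 9 groups. Control BE2C had 388 ± 41.0 CPM per kb of CCND1 (SD, n = 5) and 128 ± 3.94 of CDK4. Control IMR-32 had 278 ± 26.2 and 109 ± 15.3, and control SH-SY5Y 295 ± 15.6 and 75.3 ± 4.59. CDK6 and RB1 came next in each group, except that CCND3 passed CDK6 in control BE2C when the longest transcript was taken as the length. Per kb of exon their libraries overlapped in the control and 7 day groups of BE2C, and CDK6 lay above RB1 without overlap in all groups of the other 2 lines. The lowest places before CCND2 were taken by CCND3, RBL1 and RBL2. Control IMR-32 held them at 8.60 ± 0.358 (RBL2), 7.30 ± 2.03 (RBL1) and 6.44 ± 0.258 (CCND3), where each neighbour in that order overlapped the next. RBL1 was the lowest of the 7 detected genes in control BE2C and in all 6 treated groups, and with the longest transcript as the length it was lowest in all 3 control groups too. CCND2 was at or near 0 throughout.

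**Figure D1:**
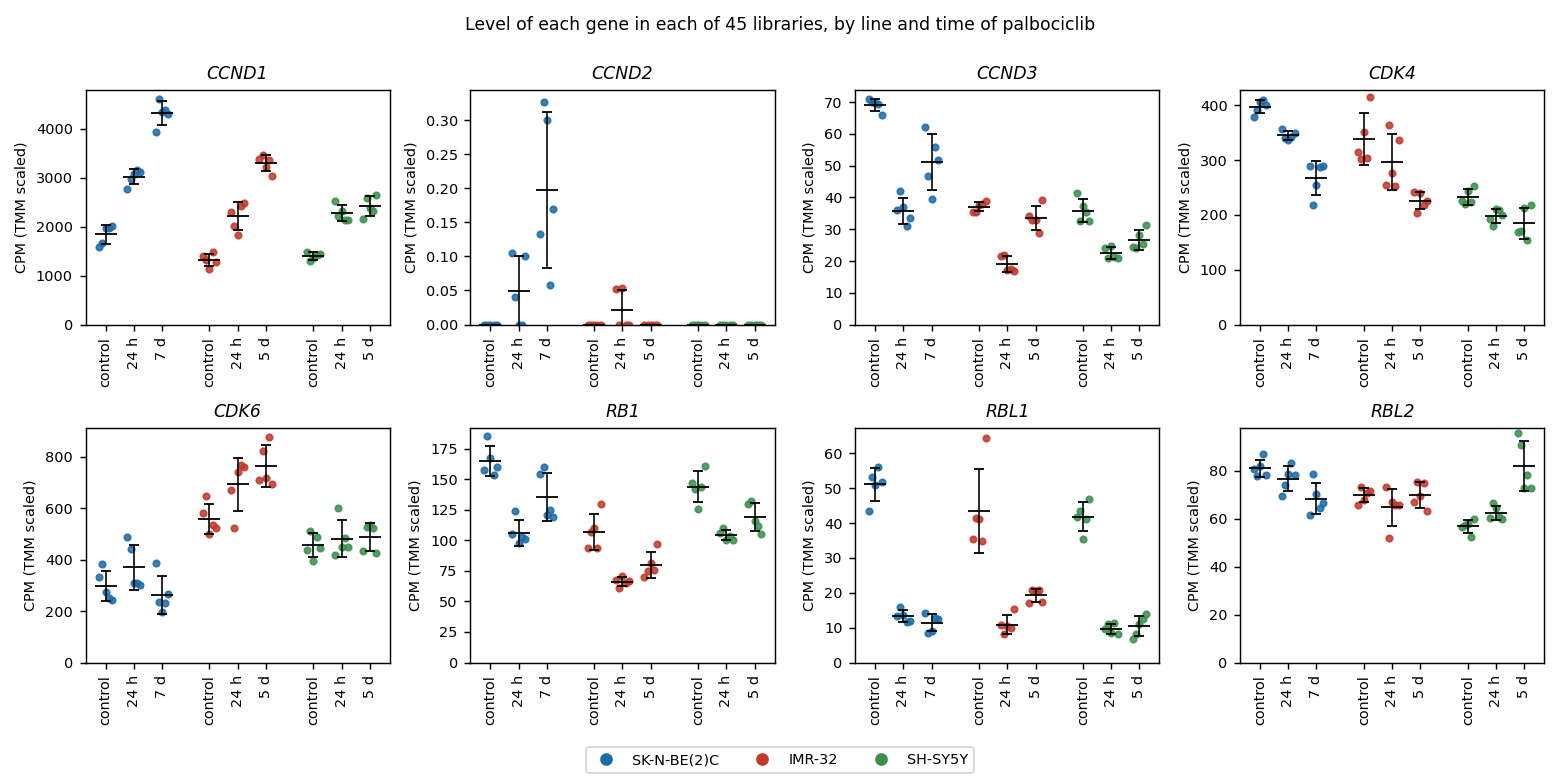
Level of each of the 8 genes in TMM-scaled CPM (vertical axes from 0, different for each gene) in the 45 libraries, by line (colour) and time of PB (horizontal axis). Points are libraries, and black bars are the mean ± SD of 5 libraries. CCND1 rises from 1596 to 2012 CPM in BE2C controls to 3944 to 4621 at 7 days, and RBL1 falls to 15.8 CPM or less at 24 h in each line.

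A gene was called changed at an adjusted p under 0.05 with an absolute log2 fold change over 0.5, in edgeR's quasi-likelihood test with p adjusted over all genes tested. CCND2 was too low for the test, which left 7 members. At 24 h against control, 4 of 7 were called in BE2C, where 21.5% of all genes tested were called. The count was 4 of 7 in IMR-32 (18.3% of all genes) and 3 of 7 in SH-SY5Y (21.5%). For the longer treatment against control it was 3 of 7 at 7 days in BE2C (46.8%), 3 of 7 at 5 days in IMR-32 (32.0%) and 3 of 7 at 5 days in SH-SY5Y (35.9%). Between 24 h and the later time, 2 of 7 were called in BE2C (31.9%), 3 of 7 in IMR-32 (19.6%) and 0 of 7 in SH-SY5Y (16.7%). In that last comparison 3 of 7 had an unadjusted p under 0.05, and DESeq2 also called 0. CCND1 was called higher and RBL1 lower in all 6 comparisons with control.

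**Figure D2:**
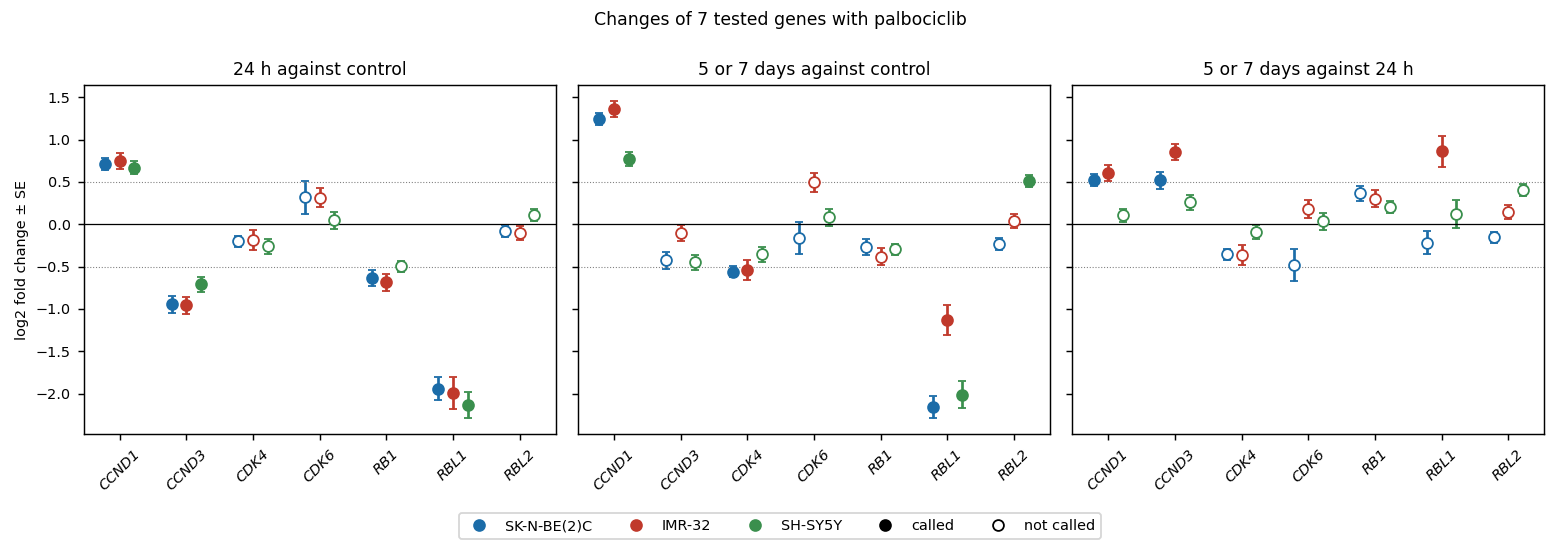
Log2 fold change ± SE (vertical axis) of the 7 tested genes in each line (colour) at 24 h against control, at 5 or 7 days against control and at 5 or 7 days against 24 h. Filled points are called, open points are not, and dotted lines mark 0.5 in each direction. At 24 h the 3 lines lie close together for each gene, and at the later time IMR-32 stands off for RBL1 and SH-SY5Y for CCND1 and RBL2. CDK6 then runs from -0.16 in BE2C to 0.50 in IMR-32.

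CCND1, the cyclin that partners CDK4 and CDK6 in most cell types, rose with PB in all 3 lines, at 24 h and at the later time. The gene lies at chr11:69455924-69469242 on the plus strand (GRCh37). BE2C libraries had 1596, 1675, 1969, 1980.4 and 2012 CPM of CCND1 in controls, 2779.5, 2984, 3079, 3161 and 3115 at 24 h and 3944, 4621, 4349.99, 4396 and 4315 at 7 days. The 3 groups did not overlap, each time point lying above the one before. IMR-32 libraries had 1393, 1326, 1144, 1474 and 1274 CPM of CCND1 in controls, 2303, 2025, 1826, 2427 and 2495 at 24 h and 3383, 3468, 3231, 3359 and 3043 at 5 days. Here, too, the groups formed 3 separate steps. SH-SY5Y libraries had 1485, 1294, 1366, 1429.7 and 1439.7 CPM of CCND1 in controls, 2529, 2226, 2331, 2131 and 2148 at 24 h and 2164, 2596, 2388, 2331 and 2656 at 5 days. In this line both treated groups were above every control, and they overlapped each other.

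The log2 fold changes of CCND1 at 24 h were 0.71 ± 0.070 (adjusted p = 5.84e-07) in BE2C, 0.75 ± 0.094 (adjusted p = 1.78e-05) in IMR-32 and 0.67 ± 0.077 (adjusted p = 1.23e-06) in SH-SY5Y. Later, they were 1.24 ± 0.071 (adjusted p = 3.94e-10), 1.36 ± 0.10 (adjusted p = 1.37e-07) and 0.77 ± 0.077 (adjusted p = 1.12e-07). These are folds of 2.36, 2.56 and 1.71 over control. From 24 h onward CCND1 rose further in BE2C, by 0.53 ± 0.070 (adjusted p = 9.15e-06), and in IMR-32, by 0.61 ± 0.094 (adjusted p = 0.000182). In SH-SY5Y the same difference was 0.10 ± 0.077 (adjusted p = 0.281), with a 95% interval of -0.046 to 0.26. The call in BE2C between 24 h and 7 days is close to the limit of 0.5, and the value was 0.49 without 24 h replicate 1 and 0.50 without replicate 2 of each group. In this annotation 10.4% of the exon bases of CCND1 also lie in exons of LTO1 on the other strand. LTO1 stood at 13.8 to 30.9 CPM in all libraries, far below CCND1.

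CCND3, the D-type cyclin best known from lymphoid cells, fell at 24 h in all 3 lines and was closer to control at the later time. It lies at chr6:41902672-42018095 on the minus strand (GRCh37). BE2C had 70.9, 69.9, 69.8, 69.3 and 66.0 CPM of CCND3 in controls, 36.0, 41.9, 36.9, 31.0 and 33.6 at 24 h and 62.3, 46.8, 39.4, 56.0 and 51.7 at 7 days. All treated libraries were below all controls, and the 7 day libraries spread across the gap, 1 of them falling inside the range of the 24 h group. IMR-32 had 35.5, 35.6, 37.6, 37.8 and 38.9 CPM of CCND3 in controls, 21.5, 21.95, 17.3, 17.5 and 16.8 at 24 h and 34.1, 33.1, 32.9, 28.7 and 39.2 at 5 days. At 24 h the libraries lay well below the rest, while the 5 day group overlapped the controls. SH-SY5Y had 41.3, 32.7, 37.4, 35.5 and 32.5 CPM of CCND3 in controls, 24.1, 20.9, 24.9, 21.4 and 21.0 at 24 h and 24.4, 24.2, 28.2, 25.3 and 31.4 at 5 days. Both treated groups of SH-SY5Y were below its controls and overlapped each other.

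At 24 h the log2 fold changes of CCND3 were -0.95 ± 0.10 (adjusted p = 1.41e-06) in BE2C, -0.96 ± 0.10 (adjusted p = 1.32e-06) in IMR-32 and -0.71 ± 0.089 (adjusted p = 3.18e-06) in SH-SY5Y. CCND3 thus moved in the opposite direction to CCND1 at this time. Later against control they were -0.43 ± 0.10 (adjusted p = 0.0012), -0.10 ± 0.094 (adjusted p = 0.373) and -0.45 ± 0.088 (adjusted p = 0.000219), none of which passed the limit of 0.5. It was passed in BE2C without 7 day replicate 1 (-0.51, adjusted p = 0.000117) and in SH-SY5Y without 5 day replicate 5 (-0.52, adjusted p = 2.16e-05). The 95% interval of the IMR-32 difference was -0.29 to 0.080. From 24 h to 5 days CCND3 rose by 0.86 ± 0.10 (adjusted p = 9.8e-06) in IMR-32, and from 24 h to 7 days by 0.52 ± 0.10 (adjusted p = 0.000357) in BE2C. The second of these lost its call without any one of 4 single libraries (24 h replicates 4 and 5, 7 day replicates 1 and 4), where it was 0.44 to 0.49. The SH-SY5Y value was 0.26 ± 0.090 (adjusted p = 0.0246).

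CCND2, the third D-type cyclin, is at chr12:4378937-4414519 on the plus strand (GRCh37) and was almost undetected. The 15 control libraries of the 3 lines held 0 counts of it, which allows up to 0.0312 CPM in BE2C, 0.0293 in IMR-32 and 0.0295 in SH-SY5Y if 3 counts over the group are taken as the limit. In BE2C it had 2, 1, 0, 0 and 2 counts at 24 h and 2, 6, 7, 1 and 3 counts at 7 days. All 5 libraries of the 7 day group thus held at least 1 read. Their 19 counts amount to 0.202 CPM, at least 6.48-fold higher than the limit for the controls. IMR-32 had 2 counts in all at 24 h and 0 at 5 days, and SH-SY5Y had 0 at both times. Another gene on the same strand, ENSG00000285901, shares 999 of the 7988 exon bases of CCND2, so reads in that stretch could belong to either. Limits from counts cover counting error only.

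Summed per kb, D-type cyclin RNA went from 399.8 ± 40.8 CPM per kb in BE2C controls to 641 ± 31.5 at 24 h and 917 ± 50.4 at 7 days. IMR-32 had sums of 284 ± 26.1, 469 ± 59.1 and 698 ± 34.3, and SH-SY5Y of 301 ± 15.99, 481 ± 34.6 and 514 ± 42.5. CCND1 made up nearly all of it. CCND3 took 3.03% ± 0.384, 2.28% ± 0.258 and 2.07% ± 0.167 of the sum in controls of the lines (in the order above) and 0.975% ± 0.137, 0.715% ± 0.139 and 0.809% ± 0.0410 at 24 h. With each gene's longest transcript as its length the control shares of CCND3 were 6.28%, 4.77% and 4.33%, and those at 24 h were 2.06%, 1.52% and 1.72%. The share at 24 h was thus lower than in controls with both lengths.

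CDK4, the kinase bound by D-type cyclins in most dividing cells, was lower at the later time in each line, and this passed the limit in BE2C and IMR-32. It lies at chr12:58141510-58149796 on the minus strand (GRCh37). BE2C libraries held 379, 391.8, 406, 409 and 401 CPM of CDK4 in controls, 357, 341, 336, 342 and 349 at 24 h and 288, 219, 254, 288 and 289 at 7 days. The groups stepped down without overlap. IMR-32 libraries held 315, 303, 352, 305 and 414 CPM of CDK4 in controls, 254, 363, 276, 253 and 337 at 24 h and 242, 203, 239, 219 and 226 at 5 days. Control replicate 5 was the highest of this line, the first 2 groups overlapped, and all 5 day libraries were below both. SH-SY5Y libraries held 226, 220.2, 243, 223 and 253 CPM of CDK4 in controls, 192, 179, 210.5, 209 and 200.3 at 24 h and 168, 171, 213, 154 and 217 at 5 days. Both treated groups lay below the controls and overlapped each other.

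The log2 fold changes of CDK4 at 24 h were -0.20 ± 0.065 (adjusted p = 0.0177), -0.18 ± 0.12 (adjusted p = 0.252) and -0.26 ± 0.086 (adjusted p = 0.0181) in the same order of lines, all under the limit of 0.5. The IMR-32 value at 24 h was -0.093 (adjusted p = 0.559) without control replicate 5, and ranged from -0.31 to -0.093 as libraries or replicate numbers were left out. By the later time CDK4 had fallen with a log2 value of -0.56 ± 0.065 (adjusted p = 1.05e-06) in BE2C and of -0.54 ± 0.12 (adjusted p = 0.00141) in IMR-32, on the log2 scale, and the value in SH-SY5Y was -0.35 ± 0.087 (adjusted p = 0.00154). Without control replicate 5 the IMR-32 value was -0.45 (adjusted p = 0.00301), below the limit. Without replicate 5 of every group it was also -0.45 (adjusted p = 0.0019). Between 24 h and the later time the differences were -0.36 ± 0.065 (adjusted p = 0.000205), -0.36 ± 0.12 (adjusted p = 0.0278) and -0.092 ± 0.087 (adjusted p = 0.404). Of the exon bases of CDK4, 44.2% also lie in exons of TSPAN31 on the other strand. TSPAN31 stood at 5.19 to 48.7 CPM in all libraries, against 154 to 414 for CDK4. TSPAN31 rose in BE2C at both times, by 1.29 ± 0.12 (adjusted p = 3.97e-07) and 1.33 ± 0.12 (adjusted p = 7.1e-08), opposite to CDK4. In IMR-32 TSPAN31 was at 0.44 ± 0.11 (adjusted p = 0.00492) at 24 h and -0.29 ± 0.11 (adjusted p = 0.0339) at 5 days, and it fell between them, at -0.73 ± 0.11 (adjusted p = 0.000119), the same direction as CDK4. In SH-SY5Y it was at 0.26 ± 0.066 (adjusted p = 0.00314) and 0.50 ± 0.066 (adjusted p = 3.05e-06), neither past the limit. The sources used here do not say which strand was counted, so the values of both genes, and those of LTO1 and CCND1 above, are uncertain by the reads that they share.

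The promoter of CDK4 is shown because this gene carries 3 copies of the E-box CACGTG, the site bound by MYC, MYCN and MAX proteins, within a single window. The sequence is the 250 bases before the start at chr12:57752311-57752560 (minus strand, GRCh38.p14, RefSeq), written 5′ to 3′ with each CACGTG in capitals.
CDK4: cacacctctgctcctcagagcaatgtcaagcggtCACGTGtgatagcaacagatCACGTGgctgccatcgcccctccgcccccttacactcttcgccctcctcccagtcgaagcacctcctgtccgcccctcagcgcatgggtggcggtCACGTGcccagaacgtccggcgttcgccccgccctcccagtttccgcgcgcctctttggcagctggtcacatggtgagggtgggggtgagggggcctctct
The copies begin at positions -216, -196 and -101 from the start site. Windows for 6 of the 8 genes were found in the RefSeq promoter table, each 300 bases long (250 before to 50 after a start). Each was searched on both strands for CACGTG, for the E2F letters TTTCCCGC, TTTGGCGC, TTTCGCGC and TTTGCCGC, and for the cell cycle homology letters TTTGAA. Of 35116 windows in the table, 7.26% held CACGTG, 3.31% held any of the E2F letters and 15.2% held TTTGAA. A match is a match of letters only.

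CDK6, the second kinase target, had no called change with control in any line. It lies at chr7:92234235-92465887 on the minus strand (GRCh37), and 1 of its 2 windows held a CACGTG, past the start. BE2C libraries held 332, 382, 273, 252 and 245 CPM of CDK6 in controls, 488, 442, 309.6, 311 and 300.2 at 24 h and 386, 236, 195, 233 and 268 at 7 days. Replicates 1 and 2 were above replicates 3 to 5 in controls and at 24 h, and all 3 groups overlapped. Between libraries of the same replicate number, CDK6 was higher at 24 h than in the control in 5 of 5 pairs. It was lower at 7 days than at 24 h in 5 of 5. The sources used here do not say that a number stands for the same passage in each group. Over all genes, the deviations of same-numbered BE2C libraries at 24 h and 7 days correlated at -0.0047 to 0.549. IMR-32 libraries held 583, 648, 501, 534 and 523 CPM of CDK6 in controls, 669.96, 522, 743, 768 and 760.1 at 24 h and 709, 824, 719, 878 and 697 at 5 days. Every 5 day library of IMR-32 was above every control, and the 24 h group overlapped both. In SH-SY5Y the range of CDK6 was 394 to 513 CPM in controls, 419 to 601 at 24 h and 426 to 537 at 5 days, all overlapping.

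At 24 h the log2 differences of CDK6 were 0.32 ± 0.19 (adjusted p = 0.192), 0.32 ± 0.11 (adjusted p = 0.0377) and 0.049 ± 0.10 (adjusted p = 0.707). With the replicate number as a block the BE2C value was 0.30 (adjusted p = 0.0367) at 24 h and -0.48 (adjusted p = 0.00258) from 24 h to 7 days, both still under the limit of 0.5. Later they were -0.16 ± 0.19 (adjusted p = 0.464), 0.50 ± 0.11 (adjusted p = 0.00167) and 0.083 ± 0.10 (adjusted p = 0.478). The IMR-32 value, 0.497 before rounding, sits just under the limit and ranged from 0.42 to 0.55 as single libraries or replicate numbers were left out. From 24 h to the later time the differences of CDK6 were -0.48 ± 0.19 (adjusted p = 0.0433), 0.18 ± 0.11 (adjusted p = 0.221) and 0.034 ± 0.099 (adjusted p = 0.802). In BE2C this passed the limit in 5 of the settings that left out a library or replicate number, reaching -0.66 (adjusted p = 0.00452) without 7 day replicate 1. The 95% intervals in SH-SY5Y were -0.15 to 0.24 at 24 h and -0.11 to 0.28 at 5 days. Per kb, CDK6 made up 15.9% ± 2.93 of CDK4 and CDK6 RNA together in control BE2C, 29.7% ± 4.36 in IMR-32 and 33.1% ± 3.31 in SH-SY5Y. At the later time it was 19.8% ± 3.67, 46.1% ± 4.03 and 40.3% ± 5.03. The largest of these shifts was in IMR-32, where the levels of CDK4 and CDK6 at 5 days overlapped per kb. With the longest transcripts as lengths the IMR-32 share went from 21.1% to 35.2%.

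**Figure D3:**
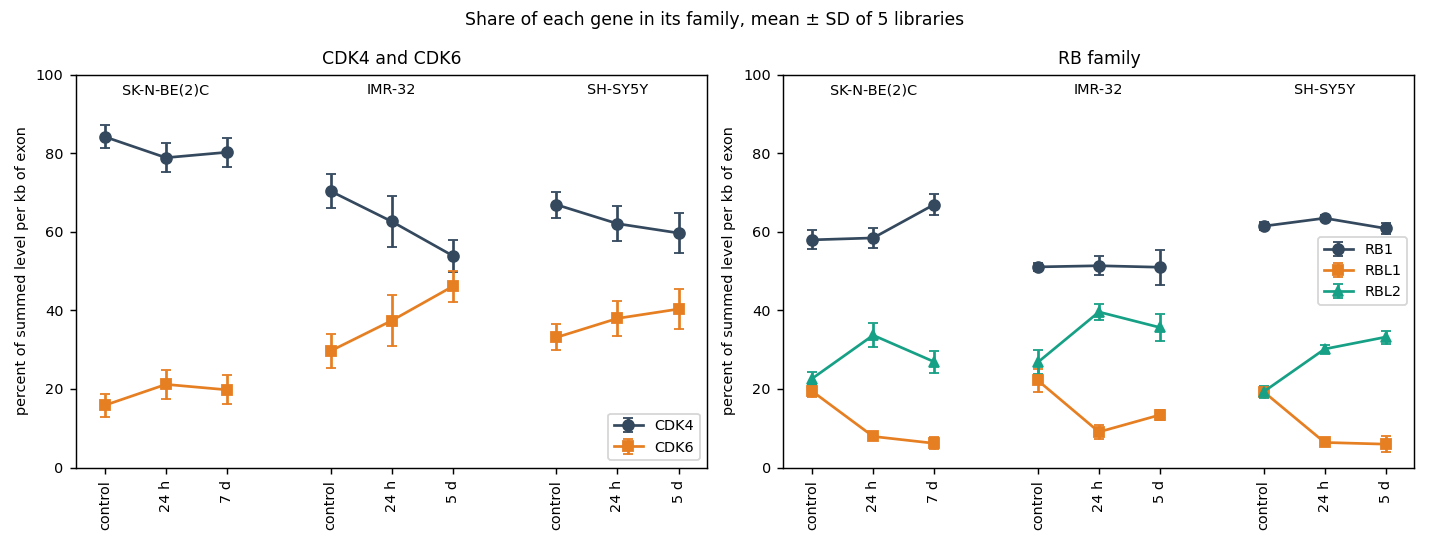
Share of CDK4 and CDK6 (left) and of RB1, RBL1 and RBL2 (right) in the summed CPM per kb of exon of their family, in percent (vertical axis), for each line and time of PB (horizontal axis). Points are the mean and bars the SD of 5 libraries. RBL1 goes from 19.3 to 22.2% in controls to 5.95 to 13.4% with PB, and CDK6 approaches CDK4 in IMR-32 at 5 days.

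RB1, the retinoblastoma protein gene whose product is the main substrate of the 2 kinases, was lower at 24 h in each line, and its mean at the later time lay between those of the 24 h and control groups. It lies at chr13:48877880-49173572 on the plus strand (GRCh37). BE2C had 158, 186, 167, 154 and 160.1 CPM of RB1 in controls, 105, 124, 97.4, 102 and 101 at 24 h and 154, 160.3, 121, 125 and 119 at 7 days. The first 2 groups did not overlap, and the 7 day group reached into both. IMR-32 had 94.1, 107, 109.9, 93.3 and 129.7 CPM of RB1 in controls, 67.4, 61.2, 70.8, 64.9 and 66.6 at 24 h and 69.9, 74.9, 81.1, 75.5 and 96.9 at 5 days. All 24 h libraries were below all controls, of which replicate 5 was the highest. SH-SY5Y had 147, 142, 126, 144 and 161 CPM of RB1 in controls, 106, 109.9, 100.1, 104 and 100.4 at 24 h and 129, 132, 116, 112 and 105 at 5 days. The same pattern held in this line, with 5 day libraries between and overlapping both groups.

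RB1 fell at 24 h with a log2 value of -0.64 ± 0.091 (adjusted p = 2.85e-05) in BE2C and of -0.69 ± 0.10 (adjusted p = 8.03e-05) in IMR-32. The SH-SY5Y value, -0.50 ± 0.069 (adjusted p = 9.25e-06), was just under the limit of 0.5 at -0.498, and DESeq2 called it at -0.52. Later the values were -0.27 ± 0.091 (adjusted p = 0.014), -0.38 ± 0.10 (adjusted p = 0.00467) and -0.30 ± 0.068 (adjusted p = 0.000958), none past the limit. Without control replicate 5 the IMR-32 values were -0.60 (adjusted p = 9.55e-05) at 24 h and -0.30 (adjusted p = 0.0107) at 5 days. From 24 h to the later time the values of RB1 were 0.37 ± 0.091 (adjusted p = 0.00247), 0.30 ± 0.10 (adjusted p = 0.0283) and 0.20 ± 0.069 (adjusted p = 0.0234). No exon base of RB1 lies in an exon of another gene in this annotation. Its only window in the promoter table is at an internal start, 173 kb into the gene, and held none of the letters.

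RBL1, the family member that is itself a known E2F target, had the largest fold change of the 7 tested members at 24 h in every line. The gene lies at chr20:35624752-35724400 on the minus strand (GRCh37). Its promoter is shown because it carries 2 of the E2F letters side by side near the start. The sequence is the 250 bases before the start at chr20:37095998-37096247 (minus strand, GRCh38.p14, RefSeq), written 5′ to 3′ with the E2F letters in capitals.
RBL1: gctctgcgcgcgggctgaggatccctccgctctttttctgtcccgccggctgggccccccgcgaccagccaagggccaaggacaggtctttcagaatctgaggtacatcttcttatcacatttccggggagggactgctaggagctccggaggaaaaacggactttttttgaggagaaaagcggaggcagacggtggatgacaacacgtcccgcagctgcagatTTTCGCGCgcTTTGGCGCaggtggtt
TTTCGCGC begins at position -26 and TTTGGCGC at -16 from the start. None of the other 5 genes with a window held any of the E2F letters. The only window of RB1 lies 173 kb into its gene, and those of CCND3 lie 1.35, 108 and 111 kb in. The stretches at the start of RB1 and of CCND3 were thus not searched.

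BE2C had 43.5, 53.3, 50.9, 56.2 and 51.7 CPM of RBL1 in controls, 13.3, 15.8, 13.8, 11.8 and 11.8 at 24 h and 14.3, 8.45, 9.13, 12.7 and 12.6 at 7 days. Both treated groups were far below the controls and overlapped each other. IMR-32 had 35.4, 41.4, 41.2, 34.8 and 64.4 CPM of RBL1 in controls, 10.6, 8.14, 10.4, 9.94 and 15.3 at 24 h and 17.1, 20.7, 20.5, 20.9 and 17.3 at 5 days. Replicate 5 was the highest library in the control and 24 h groups, and the 5 day group lay between the other 2 without touching either. SH-SY5Y had 41.8, 43.5, 35.6, 41.3 and 47.0 CPM of RBL1 in controls, 9.74, 10.97, 8.46, 11.3 and 8.11 at 24 h and 6.84, 8.24, 11.1, 12.5 and 13.9 at 5 days. As in BE2C, the treated groups overlapped each other and no control.

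RBL1 fell at 24 h with log2 values of -1.94 ± 0.13 (adjusted p = 1.06e-08), -1.99 ± 0.19 (adjusted p = 5.8e-07) and -2.13 ± 0.16 (adjusted p = 9.88e-09) on the log2 scale, in the same order of lines. The control levels were 3.84, 3.98 and 4.39 times those at 24 h. In bulk RNA, fewer cells with the transcript and less transcript per cell cannot be told apart. By the later time RBL1 had fallen with log2 values of -2.16 ± 0.13 (adjusted p = 7.99e-10), -1.13 ± 0.18 (adjusted p = 0.000115) and -2.01 ± 0.16 (adjusted p = 9.86e-09) against control. In IMR-32 it rose again between 24 h and 5 days, by 0.86 ± 0.18 (adjusted p = 0.00213). The same step was -0.22 ± 0.13 (adjusted p = 0.173) in BE2C and 0.12 ± 0.16 (adjusted p = 0.567) in SH-SY5Y, and the difference between lines in this step was not tested. Without IMR-32 replicate 5 in every group the IMR-32 values of RBL1 were -1.96 at 24 h and -0.90 at 5 days against control, and 1.06 between them.

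RBL2, the pocket protein gene associated with resting cells, passed the limit in 1 of 6 comparisons with control, where it rose in SH-SY5Y at 5 days. It lies at chr16:53467889-53525560 on the plus strand (GRCh37), and 1 of its 2 windows held TTTGAA, past the start. SH-SY5Y had 56.5, 57.1, 57.8, 52.5 and 59.7 CPM of RBL2 in controls, 60.4, 66.5, 64.4, 60.5 and 59.8 at 24 h and 95.5, 90.7, 72.9, 78.0 and 72.8 at 5 days. These 3 groups stepped up without overlap, replicates 1 and 2 being the highest at 5 days. In BE2C the ranges of RBL2 were 77.7 to 86.7, 69.4 to 83.1 and 61.6 to 78.4 CPM. In IMR-32 they were 65.8 to 73.1, 51.9 to 73.1 and 63.0 to 75.3 CPM. Within both of these lines all groups overlapped.

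The log2 differences of RBL2 at 24 h were -0.079 ± 0.067 (adjusted p = 0.355), -0.11 ± 0.084 (adjusted p = 0.353) and 0.11 ± 0.071 (adjusted p = 0.232). Later they were -0.23 ± 0.067 (adjusted p = 0.00502) in BE2C, 0.042 ± 0.084 (adjusted p = 0.697) in IMR-32 and 0.51 ± 0.071 (adjusted p = 5.4e-06) in SH-SY5Y. The last value is close to the limit and was 0.45 to 0.48 without 5 day replicate 1 or 2 or control replicate 4. From 24 h to 5 days the SH-SY5Y difference was 0.40 ± 0.071 (adjusted p = 0.000259). Of the exon bases of RBL2, 16.4% lie in exons of other genes on the other strand, among them AKTIP, which stood at 4.74 to 22.4 CPM. In SH-SY5Y at 5 days AKTIP was at 0.37 ± 0.10 (adjusted p = 0.00435) against control and had risen by 0.50 ± 0.10 (adjusted p = 0.000908) from 24 h, the same direction as RBL2. In BE2C AKTIP rose from 24 h to 7 days, by 0.54 ± 0.13 (adjusted p = 0.00169), where RBL2 was at -0.16 ± 0.067 (adjusted p = 0.055). With the counted strand unknown, the values of RBL2 are uncertain by the reads shared with such neighbours.

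Per kb, the RB family sum was 44.2 ± 2.08, 28.1 ± 1.68 and 31.4 ± 3.30 CPM per kb in the controls, at 24 h and at 7 days of BE2C. IMR-32 had sums of 32.5 ± 4.44, 20.1 ± 1.67 and 24.2 ± 1.38, and SH-SY5Y of 36.4 ± 2.70, 25.5 ± 1.03 and 30.4 ± 2.56. RB1 stayed the largest part in each group. RBL1 went from 19.4% ± 1.47 of the sum in BE2C controls to 7.91% ± 0.726 at 24 h. In IMR-32 it went from 22.2% ± 2.87 to 9.06% ± 1.79, and in SH-SY5Y from 19.3% ± 0.663 to 6.38% ± 0.765. The share of RBL2 was higher at 24 h than in controls, going from 22.6% ± 1.58 to 33.7% ± 3.06, from 26.8% ± 3.01 to 39.6% ± 2.06 and from 19.3% ± 1.495 to 30.2% ± 1.08 in the same lines.

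The control groups of the lines differed from each other in several of the 8 genes. A fit of all 45 libraries called 3 of 7 members between BE2C and IMR-32 (62.1% of all genes), 4 of 7 between BE2C and SH-SY5Y (57.5%) and 1 of 7 between IMR-32 and SH-SY5Y (54.2%). CCND3 was higher in BE2C than in IMR-32 by 0.90 ± 0.10 (adjusted p = 4.59e-11) and than in SH-SY5Y by 0.95 ± 0.10 (adjusted p = 1.47e-11). CDK6 was lower there, with log2 values of -0.91 ± 0.15 (adjusted p = 5.4e-07) and -0.62 ± 0.15 (adjusted p = 0.000236). CDK4 was higher in BE2C than in SH-SY5Y by 0.77 ± 0.095 (adjusted p = 1.56e-09) and higher in IMR-32 than in SH-SY5Y by 0.53 ± 0.094 (adjusted p = 3.16e-06). RB1 was higher in BE2C than in IMR-32 by 0.63 ± 0.090 (adjusted p = 4.94e-08). RBL2 was higher in BE2C than in SH-SY5Y by 0.51 ± 0.075 (adjusted p = 8.48e-08). CCND1 differed by 0.48 ± 0.078 (adjusted p = 4.99e-07) between BE2C and IMR-32, just under the limit, which it passed without replicate 1 (0.54, adjusted p = 7.56e-07) or 2 (0.52, adjusted p = 5.08e-06). RBL1 had no called difference, and its interval between BE2C and IMR-32 was -0.073 to 0.54. With library size as the only scaling the median of all genes moved by -0.18 against SH-SY5Y in both comparisons, and the calls of RBL2 (0.31) and of CDK4 between IMR-32 and SH-SY5Y (0.35) were lost. RBL2 also missed the limit with DESeq2 (0.47) and without replicate 4 (0.46), and CDK4 without replicate 5 (0.48).

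The responses to 24 h of PB were tested for a difference between lines in the same fit. None of the 7 members was called between BE2C and IMR-32 (4.49% of all genes), between BE2C and SH-SY5Y (2.04%) or between IMR-32 and SH-SY5Y (3.07%). These shares are 731, 332 and 500 genes, and 371 to 870, 137 to 319 and 228 to 563 as each replicate number was left out. With the replicate number as a block they were 1121, 670 and 926 genes. Unadjusted p was under 0.05 for 0, 0 and 2 of 7, and DESeq2 called 0 in each. The differences of response lay between -0.28 and 0.24, and the lowest adjusted p was 0.21, for RBL2 between IMR-32 and SH-SY5Y. The 95% intervals for CCND1 were -0.25 to 0.18, -0.20 to 0.23 and -0.17 to 0.26, and those for RBL1 -0.40 to 0.51, -0.29 to 0.62 and -0.35 to 0.56.

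At the later time the responses differed in 2 of 7 members between BE2C and IMR-32 (23.9% of all genes), 1 of 7 between BE2C and SH-SY5Y (21.2%) and 3 of 7 between IMR-32 and SH-SY5Y (20.8%). The first 2 comparisons set 7 days against 5. RBL1 was lowered more in BE2C than in IMR-32, the difference of log2 fold changes being -0.999 ± 0.23 (adjusted p = 0.000736), and less in IMR-32 than in SH-SY5Y (0.83 ± 0.23, adjusted p = 0.00517). Without replicate 5 of every group these were -1.26 (adjusted p = 1.17e-05) and 1.12 (adjusted p = 6.35e-05). CDK6 differed by -0.63 ± 0.21 (adjusted p = 0.0164) between BE2C and IMR-32. This call was lost without replicate 2, 3 or 4 (adjusted p = 0.0717, 0.0869 and 0.0832). CCND1 rose more in IMR-32 than in SH-SY5Y, by 0.53 ± 0.11 (adjusted p = 0.000275), and the difference between BE2C and SH-SY5Y was 0.44 ± 0.11 (adjusted p = 0.00204). RBL2 responded differently in SH-SY5Y, by -0.78 ± 0.11 (adjusted p = 4.11e-07) for BE2C minus SH-SY5Y and by -0.53 ± 0.11 (adjusted p = 0.000174) for IMR-32 minus SH-SY5Y. For IMR-32 minus SH-SY5Y, CCND1 missed the limit without replicate 1 (0.47) or 3 (0.49), and RBL2 without replicate 1 (-0.48).

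A list of 38 other genes of the RB pathway was read beside the 8. In each line 37 could be tested, CDKN2B being tested in BE2C alone and CDKN1C in the other 2 lines. At 24 h 15 fell and 2 rose in BE2C, 15 fell and 2 rose in IMR-32, and 17 fell and 2 rose in SH-SY5Y, where 21.5%, 18.3% and 21.5% of all genes tested were called in either direction. The median log2 fold change of the list was -0.13, -0.34 and -0.38, against 0.023, 0.060 and 0.037 over all genes tested. Later 10 fell and 1 rose, 11 fell and 2 rose, and 16 fell and 2 rose, in the same order, where 46.8%, 32.0% and 35.9% of all genes were called. The list's later medians were -0.28, -0.20 and -0.36, against 0.012, 0.0028 and 0.0105 over all genes.

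E2F and DP transcription factors are the partners of the RB family. Of 10 tested, 5 fell and 2 rose at 24 h in BE2C, 6 fell and 1 rose in IMR-32 and 5 fell in SH-SY5Y. E2F1, E2F2, E2F7 and E2F8 fell in all 3 lines at both times, and TFDP1, a DP partner, fell in all 3 at 24 h. TFDP2, another DP partner, rose at 24 h in BE2C, by 0.63 ± 0.063 (adjusted p = 7.55e-07), and in IMR-32, by 0.54 ± 0.068 (adjusted p = 1.82e-05). Later it was called higher in BE2C, at 1.09 ± 0.063 (adjusted p = 4.94e-10), and in SH-SY5Y, at 0.67 ± 0.060 (adjusted p = 3.33e-08). E2F8, a repressor of the family, had the largest fold of the list at 24 h, with -4.76 ± 0.48 (adjusted p = 1.42e-06), -6.76 ± 0.40 (adjusted p = 2.91e-09) and -5.99 ± 0.48 (adjusted p = 1.1e-07). Its mean level went from 14.3 ± 6.47 to 0.123 ± 0.0672 CPM in IMR-32. At the later time the largest fold was that of E2F7 in BE2C, -5.14 ± 0.58 (adjusted p = 1.48e-06), and IMR-32, -3.11 ± 0.42 (adjusted p = 4.06e-05, against controls at 36.1 ± 26.7 CPM), and of E2F8 in SH-SY5Y, -3.59 ± 0.38 (adjusted p = 8.73e-07). From 24 h to 5 days E2F8 rose again by 4.66 ± 0.41 (adjusted p = 8.32e-07) in IMR-32 and 2.40 ± 0.59 (adjusted p = 0.0045) in SH-SY5Y. E2F1, an activator, fell at 24 h with log2 values of -1.62 ± 0.20 (adjusted p = 1.13e-05), -2.07 ± 0.16 (adjusted p = 9.5e-08) and -2.45 ± 0.24 (adjusted p = 1.05e-06). E2F3 and E2F4 were called in no comparison with control, and E2F4 ranged from -0.30 to 0.25 on the log2 scale.

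Most of the calls among inhibitors of the kinases were lower than control. Of the INK4 genes (4 tested in BE2C, 3 in the other lines), 2 were called lower in each of the 6 comparisons with control, and CDKN2D was called higher in IMR-32 at 5 days. Of the CIP/KIP genes, 2 were called lower in BE2C at 24 h, 1 in SH-SY5Y at 24 h and 3 there at 5 days, and CDKN1A was called higher in SH-SY5Y at 24 h. CDKN2C, an INK4 protein that binds CDK4 and CDK6, fell at 24 h with log2 values of -2.40 ± 0.12 (adjusted p = 5.28e-10), -2.12 ± 0.16 (adjusted p = 3.65e-08) and -1.88 ± 0.10 (adjusted p = 2.85e-10), and it was also called lower in all 3 at the later time. CDKN2A fell in all 3 lines at the later time, with log2 values of -0.70 ± 0.10 (adjusted p = 1.24e-05), -1.58 ± 0.20 (adjusted p = 1.79e-05) and -1.32 ± 0.30 (adjusted p = 0.000912), and its level in SH-SY5Y was only 1.35 CPM in controls. CDKN1A, a CIP/KIP inhibitor, fell at 24 h in BE2C with a log2 value of -1.68 ± 0.53 (adjusted p = 0.0173) and rose in SH-SY5Y by 0.69 ± 0.22 (adjusted p = 0.0181). At 5 days it fell in SH-SY5Y, at -0.94 ± 0.22 (adjusted p = 0.00181). Between 24 h and 7 days CDKN1A rose in BE2C by 1.86 ± 0.53 (adjusted p = 0.00768), with a wide spread at 7 days (11.03 ± 10.7 CPM). CDKN1B, of the same family, fell in SH-SY5Y, at -0.72 ± 0.051 (adjusted p = 3.92e-09) at 24 h and -0.84 ± 0.052 (adjusted p = 6.06e-10) at 5 days, and in BE2C at 24 h, at -0.62 ± 0.081 (adjusted p = 1.16e-05). CDKN2D, an INK4 protein, fell at 24 h in BE2C, at -1.40 ± 0.14 (adjusted p = 7.64e-07), and in IMR-32, at -0.55 ± 0.20 (adjusted p = 0.0445), and stood at 0.80 ± 0.20 (adjusted p = 0.00362) in IMR-32 at 5 days.

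CCNE2, a cyclin E, and CDK2, the kinase that cyclin E binds, act after CDK4 and CDK6 and fell in all 3 lines at both times. CCNE2 fell at 24 h with log2 values of -3.10 ± 0.47 (adjusted p = 7.67e-05), -5.02 ± 0.33 (adjusted p = 1.16e-08) and -4.57 ± 0.44 (adjusted p = 6.89e-07), and CDK2 fell with log2 values of -2.37 ± 0.32 (adjusted p = 2.93e-05), -2.10 ± 0.15 (adjusted p = 1.64e-08) and -1.63 ± 0.075 (adjusted p = 4.16e-11). CCNE1, the other cyclin E, fell at 24 h in IMR-32, at -1.31 ± 0.17 (adjusted p = 2.95e-05), and in SH-SY5Y, at -0.79 ± 0.16 (adjusted p = 0.00051), and was at -0.18 in BE2C. Its later values, -0.11, -0.068 and -0.23, were not called.

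Of the 5 genes of the MuvB core, which joins RBL1 or RBL2 in the DREAM complex, LIN52 and LIN54 fell in all 3 lines at 24 h, with log2 values of -0.95 ± 0.079 and -0.53 ± 0.072 in BE2C. The later values of LIN54 were -0.10, 0.21 and -0.064, none called. LIN37 rose at 24 h in IMR-32, by 0.62 ± 0.14 (adjusted p = 0.00371), and in SH-SY5Y, by 0.52 ± 0.10 (adjusted p = 0.000411), and at 5 days by 0.58 ± 0.14 (adjusted p = 0.00339) and 0.93 ± 0.10 (adjusted p = 3.31e-07). HSP90AA1, a chaperone that folds CDK4, also fell in all 3 at 24 h, with log2 values of -0.54 ± 0.075 (adjusted p = 2.25e-05), -0.54 ± 0.15 (adjusted p = 0.0128) and -0.57 ± 0.11 (adjusted p = 0.000491). None of the 3 genes of the CDK-activating kinase was called against control. Of the 7 genes that turn over D-type cyclins 1 was called against control, FBXO4 in SH-SY5Y, at -0.98 ± 0.15 (adjusted p = 2.66e-05) at 24 h and -1.20 ± 0.15 (adjusted p = 1.62e-06) at 5 days.

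**Figure D4:**
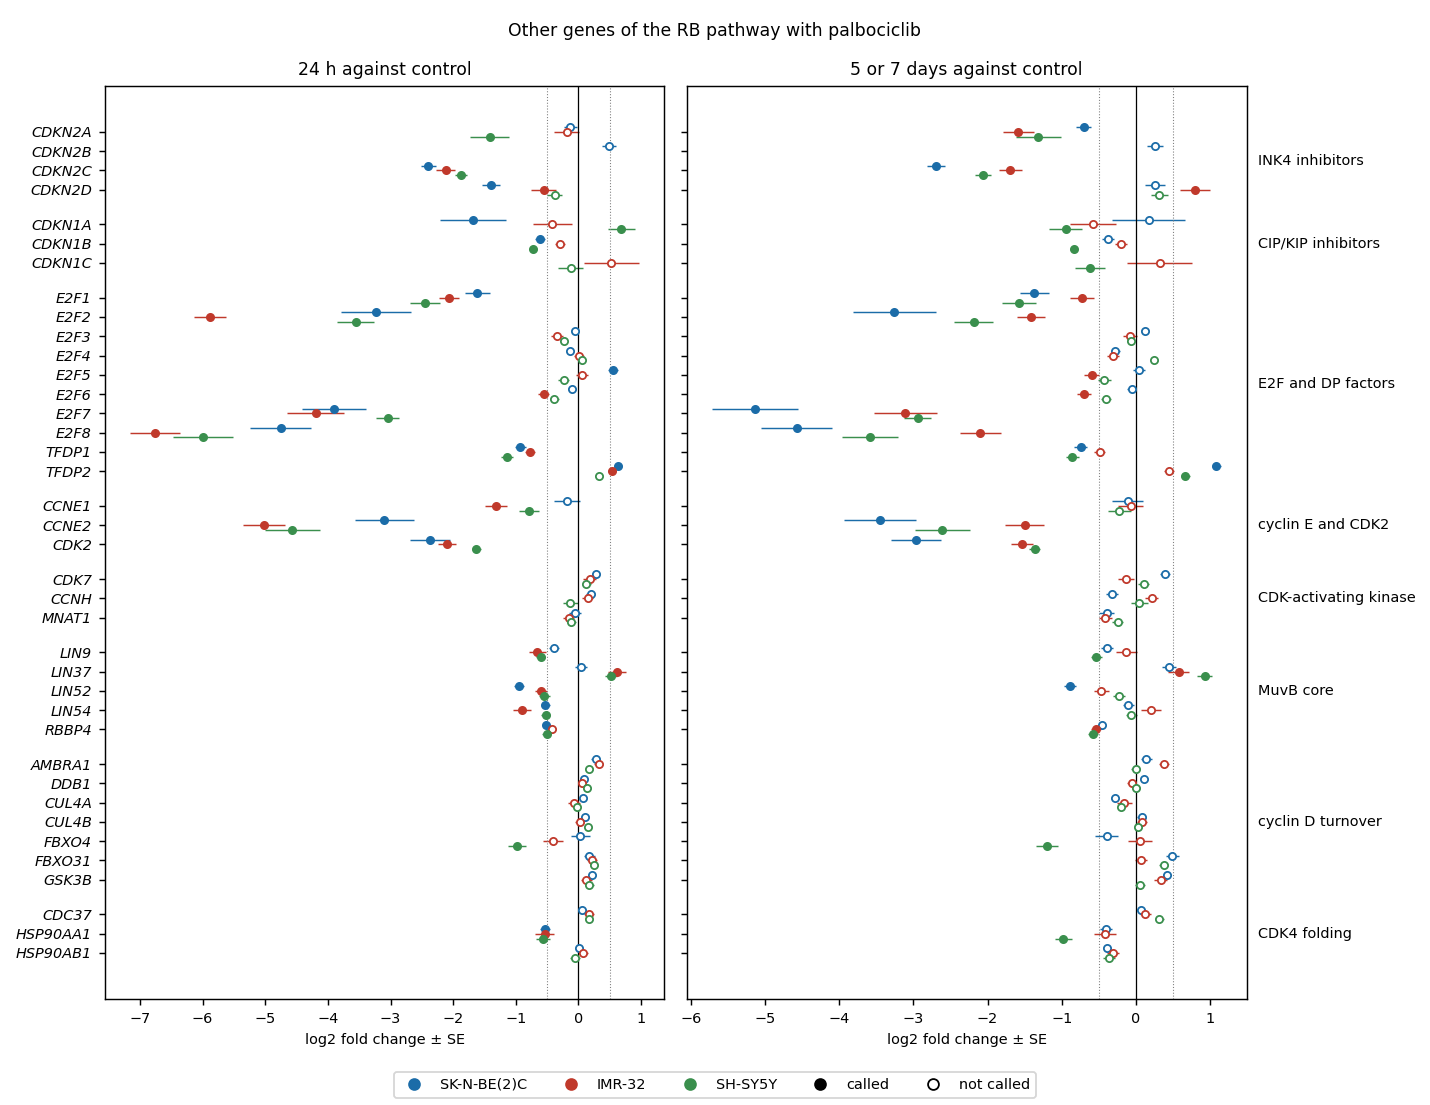
Log2 fold change ± SE (horizontal axes) of the other RB pathway genes tested, grouped by role (right), at 24 h and at 5 or 7 days against control in each line (colour). Filled points are called, open points are not, and dotted lines mark 0.5 in each direction. E2F2, E2F7, E2F8, CCNE2, CDK2 and CDKN2C lie far to the left in all 3 lines, while CDK7, CCNH, MNAT1 and most genes of cyclin D turnover lie near 0.

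Genes whose levels followed each member most closely were found by Pearson's r of log2 CPM over the 45 libraries, after the mean of each line was taken off, among 12556 genes tested in every line. These values share libraries and treatment groups and are a description only. For RBL1 they were FBXO5 (r = 0.980), KIF11 (0.979) and USP1 (0.973). CCND3 was followed by LIG1 (0.940), NCAPG2 (0.935) and ASF1B (0.933), and RB1 by TOPBP1 (0.908), RECQL (0.908) and SENP1 (0.902). The closest to CCND1 were MXD1 (0.948), TCTA (0.943) and STX12 (0.937). CDK4 was followed by UTP18 (0.943), PRDX6 (0.943) and MRPL51 (0.933). Looser matches were found for CDK6, with KIF3B (0.770), RPS6KA6 (0.759) and LPIN1 (0.752), and for RBL2, with TESK1 (0.760), SLC30A6 (0.731) and GINM1 (0.726).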

How the data were processed

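RNA from 45 libraries was sequenced as paired reads after polyA selection with a directional kit. Per the submitters' processing notes, the authors trimmed reads with Trim Galore 0.6.4 (minimum phred score 20 in the study's methods), aligned them to hg19 with STAR 2.6.1d and took gene counts from STAR. The counted strand and the gene annotation are not given in the sources used here. Tests were run on raw counts as deposited by the authors. Deposited CPM and the authors' DESeq2 (1.32.0) comparisons, which hold fold changes and p-values, were not used.

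Counts were tested in each line with edgeR 4.0.16 (R 4.3.3) by its quasi-likelihood test, with TMM scaling, filterByExpr (minimum count 10, minimum total 15, share 0.7), robust dispersions and Benjamini-Hochberg adjustment over all genes tested. Each SE was taken from the log2 fold change and its F statistic (size over root F), and 95% intervals are 1.96 SE to either side. This normal quantile makes them slightly too narrow for the F test. For CDK6 between control IMR-32 and SH-SY5Y the interval was 0.0039 to 0.58, at an unadjusted p of 0.0537 in that test. Lines were compared in 1 fit of all 45 libraries. DESeq2 1.42.0 was an alternative. Lengths and coordinates are from GENCODE on GRCh37, and promoters from RefSeq on GRCh38.p14, where 6 of 8 members matched (not CCND1 and CCND2). The fit within lines was also run on simulated counts of control and 24 h groups, with the same spread for every gene. That run did not cover the fit of all 45 libraries, and its outcome is not reported here. Replicates are passages by the study's methods, and whether a number stands for the same passage in each group is not stated. Same-numbered libraries deviated together (every correlation over 0.1) in 6 of 9 comparisons within lines. P-values measure the spread between passages of 1 line. All 8 members, the pathway list and the markers were chosen with earlier results of these data known. Genes named beyond them are the 3 with the highest r for each member. Some genotype details of the lines and some marker genes are not reported here.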

Additional observations from a re-analysis of the deposited data

Results flagged for a closer look

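RBL1 in IMR-32 control replicate 5 was at 64.4 CPM, far above the other 4 controls at 34.8 to 41.4 CPM. It was the 1 group past Dixon's 95% critical value among 66 groups of 5 libraries tested, where chance alone passes about 1 in 20. The same library stood apart over all genes. Without replicate 5 the log2 fold changes of RBL1 were -1.96 at 24 h and -0.90 at 5 days against control.

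Responses at the later time differed between lines in 6 tests of the difference itself, in edgeR's fit of all 45 libraries. For BE2C minus IMR-32 these were CDK6, at -0.63 (adjusted p = 0.0164), and RBL1, at -0.999 (adjusted p = 0.000736). For BE2C minus SH-SY5Y it was RBL2, at -0.78 (adjusted p = 4.11e-07). For IMR-32 minus SH-SY5Y they were CCND1, at 0.53 (adjusted p = 0.000275), RBL1, at 0.83 (adjusted p = 0.00517), and RBL2, at -0.53 (adjusted p = 0.000174). BE2C was treated for 7 days and the other lines for 5, so time and line cannot be told apart in the first 3.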

How the results depend on the processing

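Among fold changes of single members under other settings, 1586 kept their direction and side of the threshold, 34 passed it newly, 33 no longer did and 13 reversed. Without a fold change limit the members called were 6 (7 days) and 5 (7 days against 24 h) in BE2C. Over all genes these were 9993 and 8335 of 14055. In IMR-32 the members were 5 (5 days) and 5 (5 days against 24 h), and all genes 7296 and 4914 of 14293. SH-SY5Y had 5 (24 h), 6 (5 days) and 3 (5 days against 24 h) members, and 7154, 9516 and 6331 of 14547 genes. Between lines the members called were 6 for control BE2C against IMR-32, 3 for control IMR-32 against SH-SY5Y and 2 for the late response of BE2C minus SH-SY5Y. Already with the limit, 62.1%, 54.2% and 21.2% of all genes were called in these comparisons. With a limit of 1 the members called were 1 at 24 h in each line, 1 in SH-SY5Y at 5 days, and 0 between the later time and 24 h in BE2C and IMR-32. Over all genes that limit left 1070 of 14055, 925 of 14293 and 1021 of 14547 at 24 h in BE2C, IMR-32 and SH-SY5Y. It left 2101 genes in SH-SY5Y at 5 days, and 1652 and 1144 between the later time and 24 h in BE2C and IMR-32. For BE2C 7 days against 24 h the count was 0 with no filter on low counts and 1 with replicates 3 to 5 summed. In the main setting 31.9% of all genes were called there. Replicates 3 to 5 lay closest to their group mean in BE2C controls and at 24 h. Their root mean square log2 deviation was 0.148 to 0.161, against 0.191 to 0.206 for replicates 1 and 2. Whether replicates 3 to 5 are fully independent cultures was not tested.

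Leaving out single libraries or replicate numbers gave 3 to 4 members called at 24 h in SH-SY5Y, 3 to 4 at 7 days and 1 to 3 from 24 h to 7 days in BE2C, 2 to 4 at 5 days in IMR-32 and 2 to 4 at 5 days in SH-SY5Y. Over all genes the ranges in this order were 2864 to 3170, 6176 to 7021, 3906 to 4977, 4044 to 5040 and 4779 to 5580. The main fits tested 14055 genes in BE2C, 14293 in IMR-32 and 14547 in SH-SY5Y. Between lines the range of members was 1 to 3 for the late response of IMR-32 minus SH-SY5Y, 1 to 2 for that of BE2C minus IMR-32, 0 to 1 for control IMR-32 against SH-SY5Y, and 3 to 4 for control BE2C against either other line. Over all genes these ranges were 2577 to 3909, 2986 to 4297 and 8593 to 8959. For control BE2C they were 9885 to 10225 against IMR-32 and 9120 to 9377 against SH-SY5Y. The main fit between lines tested 16282 genes. In the late response of IMR-32 minus SH-SY5Y, CCND1 missed the limit without replicate 1 (0.47) or 3 (0.49) and RBL2 without replicate 1 (-0.48).

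Reversed values were small. With library size alone, CCND3 (-0.14) and RBL1 (-0.13) between control IMR-32 and SH-SY5Y and RB1 (-0.0074) between control BE2C and SH-SY5Y changed sign. With each replicate number left out in turn, CCND3 ranged from -0.0042 to 0.12 and RBL1 from -0.086 to 0.12 between control IMR-32 and SH-SY5Y, both being negative without replicate 5. As libraries were left out in SH-SY5Y, CDK6 ranged from -0.063 to 0.096 at 24 h, from -9.47e-05 to 0.13 at 5 days and from -0.025 to 0.15 between them. CDK4 ranged from -0.15 to 0.010 and RBL1 from -0.038 to 0.27 between 24 h and 5 days in SH-SY5Y.

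Over all genes, 2434 to 6572 were called within lines, 4738 to 9993 without a fold change limit and 826 to 3108 with a limit of 1. The counts of 24 h responses that differed between lines, 731 (BE2C minus IMR-32), 332 (BE2C minus SH-SY5Y) and 500 (IMR-32 minus SH-SY5Y), became 1121, 670 and 926 with the replicate number as a block. The block changed no call of a member in the comparisons within lines or of responses between lines, and no block was fitted for controls of different lines. Without a fold change limit the first 2 were 1122 and 510, and the second was 219 with no filter. With library size alone the share of higher genes went from 48.5% to 36.9% and from 49.0% to 38.8% for BE2C and IMR-32 controls against SH-SY5Y, and from 61.8% to 77.1% and from 46.4% to 60.5% for the first 2 of those responses. The causes were not tested.

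CCND2 is limited by depth, with 26 counts in 10 libraries in all.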

Other observations

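Among the 7 members detected, the level of CCND1 ran opposite to CDK4 and RBL1 over the 45 libraries after the mean of each line was taken off (Pearson's r of log2 CPM of -0.81 and -0.77). CCND3, RB1 and RBL1 ran together, with r of 0.80 for CCND3 and RB1, 0.79 for CCND3 and RBL1 and 0.77 for RB1 and RBL1. RBL2 had r of -0.22 to 0.096 with the other members. These points share libraries and treatment groups, and the values are a description.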
